A study of Mus musculus with 69 samples.

Results

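Ionotropic glutamate receptors and the proteins that hold them in the postsynaptic density were examined as a module of 36 genes. The members were set by a list of gene symbols, and all 36 were found among the 17634 genes of the table. They comprise the AMPA receptor subunits (Gria1 to Gria4), the NMDA receptor subunits (Grin1, Grin2a to Grin2d and Grin3a), the kainate receptor subunits (Grik1 to Grik5) and the delta receptor subunit Grid1. The scaffolds are the MAGUK genes Dlg1 to Dlg4, the SAPAP genes Dlgap1 to Dlgap4 and Shank1 to Shank3. The remaining members are the AMPA receptor auxiliary subunits Gsg1l, Cnih2, Cnih3, Shisa6, Shisa7 and Shisa9, the kainate receptor auxiliary subunits Neto1 and Neto2, and Iqsec2, an exchange factor for Arf GTPases in the postsynaptic density.

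Ribosome-bound mRNA was recovered with RiboTag, in which Cre recombination switches on an HA-tagged form of the ribosomal protein RPL22 and an antibody to the tag pulls down the ribosomes with their mRNA. PV-Cre Rpl22HA/HA mice, in which the parvalbumin promoter drives Cre in fast-spiking inhibitory interneurons, gave 10 libraries each from Fmr1 KO V1, WT V1, Fmr1 KO S1 and WT S1. Camk2a-Cre Rpl22HA/HA mice, whose tagged cortical cells are mainly excitatory pyramidal neurons, gave 6 Fmr1 KO and 8 WT libraries from V1 and 7 Fmr1 KO and 8 WT libraries from S1. V1 is primary visual and S1 primary somatosensory cortex, both sexes were used, all mice were 70 to 100 days old, and all carried the tagged Rpl22 allele and Cre. Fmr1 encodes the RNA-binding protein FMRP, whose loss in humans causes fragile X syndrome. The 69 libraries came from 37 animals, 32 of which gave both areas.

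Most excitatory synapses of the cortex use AMPA receptors for fast depolarization and NMDA receptors for calcium entry at depolarized potentials. AMPA receptors are tetramers that conduct calcium unless they hold an edited GluA2 subunit, the product of Gria2. NMDA receptors combine the obligatory GluN1 subunit, from Grin1, with GluN2 subunits that set opening time and magnesium block. MAGUK proteins such as PSD-95, from Dlg4, bind NMDA receptors directly and AMPA receptors through auxiliary subunits. SAPAP and Shank proteins link that layer to the actin cytoskeleton.

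The site at which GluA2 differs from its relatives lies in the pore loop. The following stretches of 68 bases are shown because the class comparison turns on the balance of these 4 subunits. Each runs along exon 11 from 42 bases before the codon of the glutamine-to-arginine (Q/R) site to the end of the exon, in mm10 with GENCODE M21, and the capitals mark that codon. Gria1 lies at chr11:57243052-57243119 on the plus strand, Gria2 at chr3:80706888-80706955 on the minus strand, Gria3 at chrX:41610223-41610290 on the plus strand and Gria4 at chr9:4464114-4464181 on the minus strand.
Gria1: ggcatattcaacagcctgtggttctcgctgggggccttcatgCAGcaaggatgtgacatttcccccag
Gria2: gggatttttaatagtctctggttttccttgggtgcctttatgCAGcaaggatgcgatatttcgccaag
Gria3: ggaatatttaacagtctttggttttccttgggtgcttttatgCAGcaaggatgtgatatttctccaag
Gria4: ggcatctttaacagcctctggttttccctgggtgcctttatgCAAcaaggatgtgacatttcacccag
The genome encodes glutamine here in all 4 genes, and arginine appears in GluA2 through editing of its RNA. Gria2 shared 61 of the 68 bases with Gria3, 58 with Gria4 and 53 with Gria1. Gene counts carry no editing state, so the values below are amounts of each mRNA and not of edited forms.

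Depth was similar throughout, at 27.64 to 49.11 M estimated counts per library. Fmr1 had a median of 10.7 CPM (counts scaled to library size) in PV KO V1, against 47.0 CPM in PV WT V1. In Camk2a V1 its medians were 8.36 CPM in KO and 79.9 CPM in WT, and KO and WT libraries did not overlap in any class and area. Each class carried its defining markers, since Gad1 was between 2936 and 4324 CPM in PV libraries, against 13.3 to 536 CPM in Camk2a libraries. The glutamate transporter Slc17a7 was between 120 and 351 CPM in PV libraries, against 2142 to 2701 CPM in Camk2a libraries. Some libraries stood apart. The Camk2a libraries of animals C3 (KO), C18 and C19 (both WT) were rich in PV interneuron markers. Scored with genes that separate V1 from S1 in other animals, both libraries of P9 (KO PV), P22 (WT PV) and C24 (WT Camk2a) and the V1 libraries of P24 (KO PV) and C18 fell on the side of the other area. The V1 library of C18 scored 0.185, between the WT Camk2a medians of 0.618 in V1 and -0.168 in S1. Its S1 library, at -0.695, lay on its own side. The genes for the Camk2a scores came from WT PV animals, and the part of PV cell mRNA in the C18 score was not tested. The labels were kept, and part of the results is also given without some of these animals. Single-gene values between V1 and S1 include all libraries unless stated otherwise. The S1 library of C24 was also the one library labelled as a second batch.

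The members were well covered in both classes. Their summed level had a median of 8686 CPM in KO and 8804 CPM in WT PV libraries of V1. In Camk2a libraries of V1 it was 11010 CPM in KO and 10240 CPM in WT. Levels of different genes are compared per kb of merged exons, a length that counts the exons of all isoforms. On that scale Gria1 led in WT PV libraries of V1 with 139.6 ± 17.5 CPM per kb (SD, n = 10), followed by Shank1 with 109.6 ± 21.0 and Grin1 with 81.2 ± 4.94 CPM per kb. In WT Camk2a libraries of V1, Dlgap3 led with 132.5 ± 13.1 CPM per kb (n = 8), followed by Dlg4 with 97.7 ± 5.95, Shank1 with 92.4 ± 9.78 and Grin1 with 84.8 ± 8.34 CPM per kb. Those last values lie within about 1 SD of their neighbours, so their order is not fixed. The rarest members were Shisa6 with 0.484 CPM per kb in the PV libraries and Grin2c with 0.346 CPM per kb in the Camk2a libraries.

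The first comparison asked how the receptor and scaffold mRNAs of PV interneurons differ from those of Camk2a neurons. In WT V1, PV ribosomes carried more mRNA of the AMPA subunits Gria1 and Gria4, the NMDA subunits Grin2c and Grin2d, the kainate subunits Grik1 and Grik2 and the kainate auxiliary subunit Neto2. They carried less of Gria2, of all 4 MAGUK scaffolds and of 5 of the 6 AMPA auxiliary subunits. With edgeR's quasi-likelihood test and Benjamini-Hochberg adjustment over all genes, at an adjusted p under 0.05, 9 members were higher and 24 lower in PV. These 33 are 91.7% of the members, 25% higher and 66.7% lower, where 77.3% of all 16330 genes tested were called, 39.8% higher and 37.5% lower. The median log2 fold change of PV over Camk2a was -0.494 over the members and 0.0329 over all genes. Of the members, 16 differed at least 2-fold, 6 of them higher and 10 lower, against 32.8% of all genes. The CPM values of the 2 groups of libraries did not overlap for 21 members, or 58.3%, and for 42.6% of all genes. PV libraries also held more of some other cells, with 7 of 8 oligodendrocyte (median log2 fold change 1.46) and 6 of 6 oligodendrocyte precursor markers (2.2) called higher. So were 6 of 8 microglia (2.22) and 6 of 7 vascular markers (1.91), with 1 of each list called lower. Of 8 markers of other interneurons, 3 were called higher and 2 lower. Their summed level was 154 to 221 CPM in WT PV and 899 to 1274 CPM in WT Camk2a libraries of V1. The part of RNA from other cells in the member results was not tested.

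**Figure D1:**
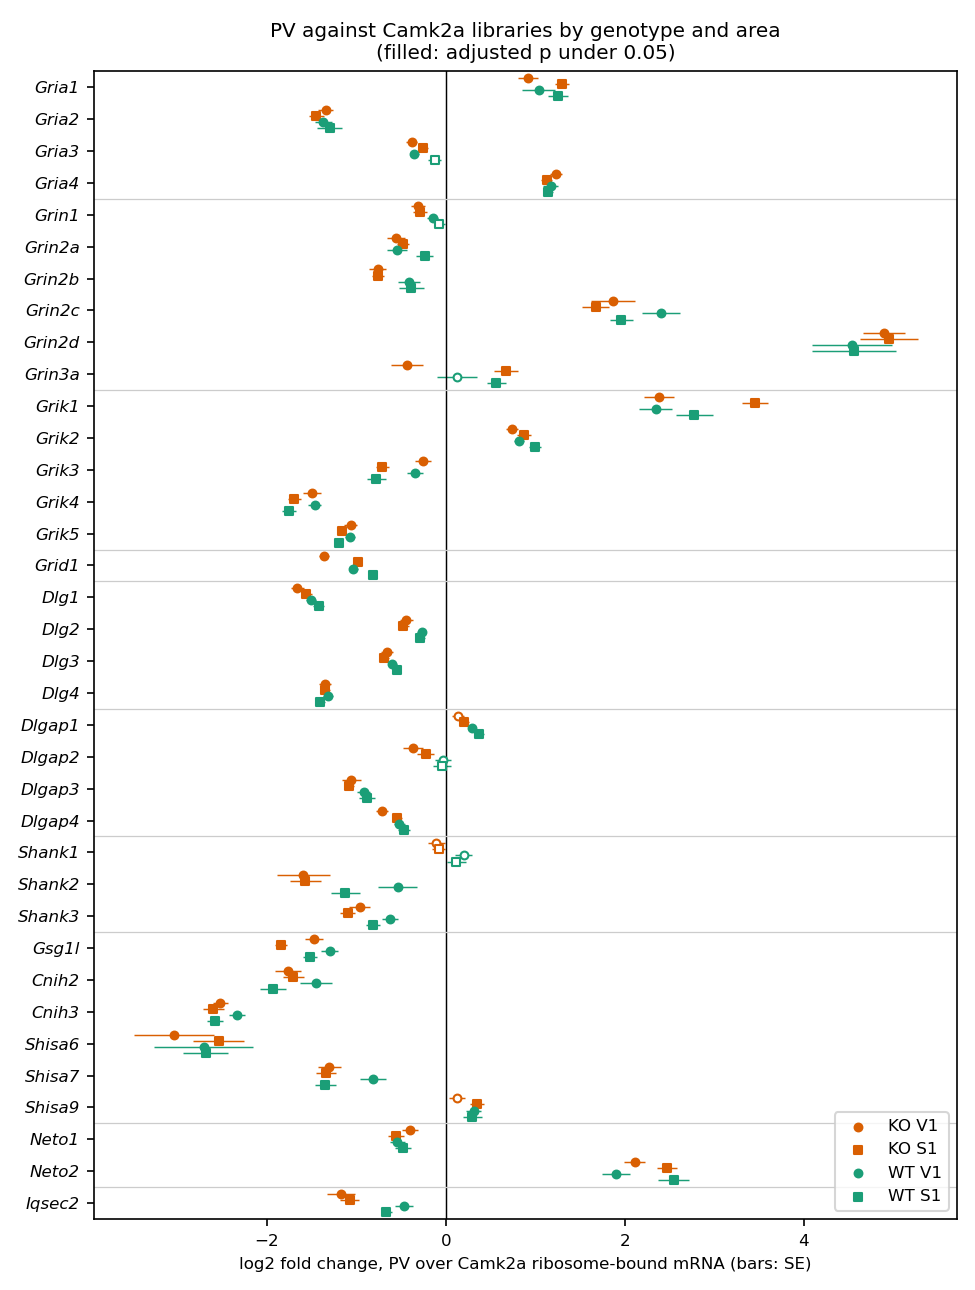
Log2 fold change of PV over Camk2a ribosome-bound mRNA (x axis) for the 36 members (y axis, ordered by role), with SE bars, in KO and WT mice and in V1 and S1; filled points passed an adjusted p under 0.05. Grin2d lies farthest to the right, at 4.54 in WT V1, and Cnih3 and Shisa6 farthest to the left, at -2.33 and -2.71.

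Among the AMPA subunits, Gria1 had 659 to 1007 CPM with a median of 825 in WT PV libraries of V1, against 261 to 664 CPM with a median of 299 in WT Camk2a libraries. The ranges met at one Camk2a library, and the log2 fold change was 1.04 ± 0.18 (SE; adjusted p = 5.63e-05). Gria4, a subunit with fast kinetics, had 219 to 269 CPM with a median of 237 in PV libraries, against 78.2 to 132 CPM with a median of 103 in Camk2a libraries. Its ranges did not overlap, and its log2 fold change was 1.17 ± 0.08 (adjusted p = 1.03e-10). Gria2 had 178 to 280 CPM with a median of 243 in PV libraries, against 487 to 750 CPM with a median of 565 in Camk2a libraries. All PV libraries lay below all Camk2a libraries, at a log2 fold change of -1.37 ± 0.10 (adjusted p = 1.14e-10). Gria3 was lower in PV by a smaller step, a log2 fold change of -0.35 (adjusted p = 1.33e-06).

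The make-up of the AMPA subunit mRNAs therefore differed between the classes, and the share of each subunit in the summed CPM per kb of Gria1 to Gria4 was taken in every library. Gria2 made up 6.95 ± 0.873% in WT PV libraries of V1 (SD, n = 10), against 25.6 ± 5.59% in WT Camk2a libraries (n = 8). In WT S1 its share was 6.59 ± 0.868% in PV and 24.4 ± 3.79% in Camk2a libraries. Gria1 made up 63.2 ± 1.92% in PV and 41.2 ± 10.3% in Camk2a libraries of WT V1. Gria4 made up 17.4 ± 0.762% in PV and 11 ± 2.63% in Camk2a libraries, and Gria3 12.5 ± 1.21% in PV and 22.2 ± 3.08% in Camk2a libraries. None of these 4 shares overlapped between the classes in WT V1, and each had an adjusted p of 1.10e-04 in an exact two-sided permutation test over libraries, adjusted over 192 share tests. The same direction held in both areas of KO mice, with Gria2 at 6.62 ± 0.817% in PV and 22.6 ± 2.42% in Camk2a libraries of KO V1. Merged exons of Gria2 span 15.548 kb, so its share depends on the length used. Without division by length the Gria2 share differed by -27.3 percentage points between the classes in WT V1, against -18.7 points with it. Shares within a family add up to 100%, so a fall in one subunit's share raises the others.

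**Figure D2:**
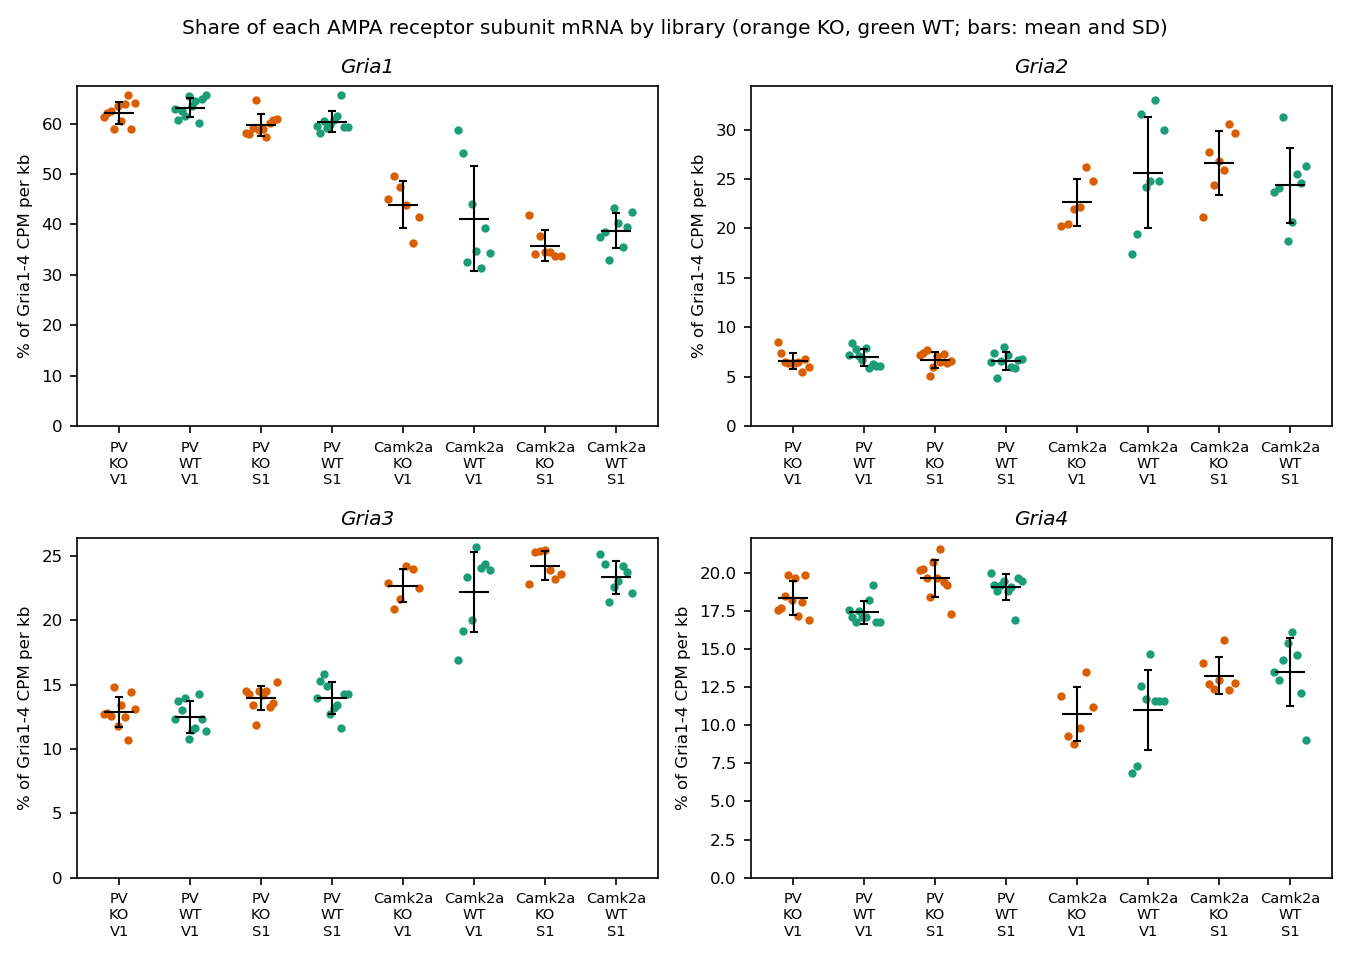
Share of each AMPA receptor subunit in the summed CPM per kb of Gria1 to Gria4 (y axis, %), by library, in the 8 groups of class, area and genotype (x axis); orange points are KO libraries, green points WT libraries, and bars show mean and SD. Gria2 lies between 4.88% and 8.48% in all PV libraries and between 17.4% and 33.0% in all Camk2a libraries.

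The NMDA receptor subunits split in another way. Grin1 was close in both classes, at log2 fold changes of -0.15 in WT V1 (adjusted p = 0.0338) and -0.07 in WT S1 (adjusted p = 0.304). Grin2a and Grin2b, the main GluN2 subunits of adult pyramidal cells, were lower in PV, at -0.55 and -0.41 in WT V1. Grin2d, whose product gives slow channels with weak magnesium block, had 83.7 to 111 CPM with a median of 97.2 in WT PV libraries of V1, against 0.966 to 11.8 CPM with a median of 2.40 in WT Camk2a libraries. Its log2 fold change was 4.54 ± 0.44 (adjusted p = 8.62e-08). The highest Camk2a values, 10.3 and 11.8 CPM, belonged to C18 and C19, the WT animals rich in PV markers, and the other 6 WT Camk2a libraries of V1 lay between 0.966 and 2.87 CPM. Grin2c, another subunit with weak magnesium block, had 5.51 to 15.5 CPM with a median of 8.55 in PV libraries, against 1.31 to 2.27 CPM with a median of 1.61 in Camk2a libraries. Its log2 fold change was 2.41 ± 0.21 (adjusted p = 2.39e-09). Grin2c is best known from the cerebellum and astrocytes. In this comparison 6 of 8 astrocyte markers were called higher in PV libraries and 2 lower, with a median log2 fold change of 1.88 over that list. The list's summed level was nevertheless 446 to 802 CPM in WT PV and 724 to 972 CPM in WT Camk2a libraries of V1, and the part of astrocyte RNA in the Grin2c result was not tested. As a share of the 4 GluN2 mRNAs per kb, Grin2d made up 27.2 ± 1.92% in WT PV libraries of V1 (n = 10) and 1.32 ± 1.33% in WT Camk2a libraries (n = 8). Grin3a, a glycine-binding subunit, had no common direction. Its log2 fold change was 0.13 in WT V1 (adjusted p = 0.618), 0.57 in WT S1 (adjusted p = 3.46e-05), -0.43 in KO V1 (adjusted p = 0.035) and 0.68 in KO S1 (adjusted p = 1.47e-04), so it was higher in PV in S1 of both genotypes and lower in V1 of KO mice.

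Of the 5 kainate subunits, Grik1 and Grik2 were higher and Grik3, Grik4 and Grik5 lower in PV libraries of WT V1. Grik1 had 28.4 to 43.9 CPM with a median of 33.3 in WT PV libraries of V1, against 2.85 to 10.1 CPM with a median of 6.29 in WT Camk2a libraries. The groups did not overlap, and the log2 fold change was 2.35 ± 0.19 (adjusted p = 1.68e-09). Neto2, which alters the gating of kainate receptors, had 160 to 285 CPM with a median of 177 in PV libraries, against 33.8 to 72.6 CPM with a median of 42.6 in Camk2a libraries, at a log2 fold change of 1.90 ± 0.16 (adjusted p = 3.43e-09). The 2 highest Camk2a values of both genes were again those of C18 and C19. Neto1, its relative, was lower in PV at -0.54 (adjusted p = 4.53e-06). Grik3 belongs to the low-affinity subunits with Grik1 and Grik2, yet was lower in PV, at -0.34 (adjusted p = 0.00252) in WT V1 and -0.77 (adjusted p = 2.76e-06) in WT S1. Both high-affinity subunits, which need a low-affinity partner to form channels, were lower in PV as well. Grik4 had 8.04 to 12.8 CPM with a median of 11.6 in PV libraries, against 25.5 to 31.5 CPM with a median of 29.3 in Camk2a libraries, a log2 fold change of -1.47 ± 0.08 (adjusted p = 7.05e-13). Grik5 was lower by the same measure at -1.07, and Grid1, which binds cerebellin at the synaptic cleft, at -1.04.

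The scaffolds and AMPA auxiliary subunits were mostly lower in PV libraries. Dlg1, which encodes SAP97, had 72.6 to 101 CPM with a median of 88.0 in WT PV libraries of V1, against 214 to 263 CPM with a median of 238 in WT Camk2a libraries. Its log2 fold change was -1.51 ± 0.06 (adjusted p = 3.70e-15). Dlg4 was lower at -1.32 (adjusted p = 1.58e-14), Dlgap3 at -0.92 and Shank3 at -0.62, while Dlgap1 was higher at 0.29 (adjusted p = 8.51e-06). Shank1 did not pass the test in any of the 4 class comparisons, with log2 fold changes of -0.11 to 0.20. The cornichon proteins slow the closing of AMPA receptors. Cnih3 had 11.9 to 19.3 CPM with a median of 16 in PV libraries, against 65.1 to 82.1 CPM with a median of 73.0 in Camk2a libraries. Its groups lay far apart, at a log2 fold change of -2.33 ± 0.09 (adjusted p = 9.80e-15). Cnih2 had 24.9 to 58.8 CPM with a median of 42.5 in PV libraries, against 81.9 to 171 CPM with a median of 93.2 in Camk2a libraries, a log2 fold change of -1.45 ± 0.18 (adjusted p = 1.04e-06). Shisa6 was rare and variable, with 1.27 to 7.72 CPM and a median of 2.76 in PV libraries, against 4.92 to 66.1 CPM and a median of 12.9 in Camk2a libraries. Its groups overlapped, and its log2 fold change was -2.71 ± 0.55 (adjusted p = 2.95e-04). Shisa9 was the one auxiliary subunit of AMPA receptors that was higher in PV, at 0.32 (adjusted p = 0.00205).

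The KO animals, which share no library with the WT animals, gave a second reading of the class difference. In KO V1, 7 members were higher and 26 lower in PV, where 74.3% of all genes were called, 38.3% higher and 35.9% lower. In KO S1 the members counted 10 higher and 25 lower, where 77.7% of genes were called, 39.8% higher and 37.9% lower. In WT S1 they counted 10 higher and 22 lower, where 77.2% were called, 39.1% higher and 38.1% lower. All 33 members called in WT V1 had the same sign in KO V1, as did all 32 called in WT S1 in KO S1, against 98.0% and 98.1% of all genes called in WT. Of 39 other genes of AMPA receptor assembly and the postsynaptic density tested as a companion list, 8 were higher and 26 lower in PV libraries of WT V1, together 87.2% of that list against the 77.3% of all genes. In these bulk libraries, fewer cells of a type and less mRNA per cell cannot be told apart.

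The second comparison, the aim of the study, asked what loss of Fmr1 did to these mRNAs. In PV neurons, mRNA of Gsg1l, an AMPA receptor auxiliary subunit that slows recovery from desensitization, was lower in KO mice in both areas, and it was the one member that passed the test. It was called among 0.191% of genes in V1, 0.77% in S1 and 1.36% when the 2 libraries of an animal were summed. In Camk2a neurons no member was called, where 1.4% of all genes were called in V1, 4.09% in S1 and 4.11% over both areas. In Camk2a neurons the edgeR test gave an unadjusted p under 0.05 for 6 members in V1, where 18.2% of all genes had one. It did so for 7 members in S1 (21.9% of genes) and for 11 over both areas (23%). DESeq2 called 1 member in Camk2a V1 (4.8% of genes), 2 in S1 (8.23%) and 2 over both areas (9.81%). The members' shares by these counts were 16.7%, 19.4% and 30.6% at the unadjusted p, and 2.78%, 5.56% and 5.56% with DESeq2. In PV neurons 10 members in V1 (7.82% of genes), 4 in S1 (12.3%) and 6 over both areas (11.9%) had an unadjusted p under 0.05. These are 27.8%, 11.1% and 16.7% of the members. In PV V1 26 members had a negative and 10 a positive log2 fold change, with a median of -0.0822 against -0.0023 over all genes. In PV S1 19 were negative and 17 positive, with a median of -0.00571 against 0.00529 over all genes. Over both areas the median log2 fold change of KO over WT was -0.0471 for the members and 0.00584 for all genes in PV, and 0.0718 for the members and 0.00398 for all genes in Camk2a neurons.

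Gsg1l lies at chr7:125878420-126082411 on the minus strand (mm10). In S1 it had 35.7 to 48.0 CPM with a median of 41.4 in KO PV libraries, against 49.8 to 64.5 CPM with a median of 59.5 in WT PV libraries. Every KO library lay below every WT library, and the log2 fold change was -0.49 ± 0.06 (SE, n = 10 each; edgeR adjusted p = 3.70e-05). In V1 it had 37.5 to 54.1 CPM with a median of 43.7 in KO PV libraries, against 48.9 to 70.2 CPM with a median of 54.1 in WT PV libraries. These ranges overlapped, at a log2 fold change of -0.37 ± 0.07 (edgeR adjusted p = 0.0191). Summed over both areas, Gsg1l averaged 44.0 ± 4.06 CPM in 9 KO animals and 58.0 ± 4.13 CPM in 10 WT animals (SD), a log2 fold change of -0.42 (95% interval -0.54 to -0.30; edgeR adjusted p = 2.15e-04), and all 9 KO animals lay below the WT mean. The call in V1 ended without P9, P22 and P24, at an adjusted p of 0.066 with a log2 fold change of -0.37. It also ended when 1 of the KO animals P7, P9 and P12 or of the WT animals P18, P26 and P27 was left out, with an adjusted p of up to 0.0634. The calls in S1 and over both areas held in every such fit.

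In Camk2a neurons Gsg1l pointed the same way without passing the test. It averaged 125.0 ± 11.9 CPM in 6 KO animals and 143.3 ± 12.3 CPM in 7 WT animals over both areas (SD), with a log2 fold change of -0.19 (95% interval -0.35 to -0.04; edgeR adjusted p = 0.132). The genotype effect of Gsg1l differed between the classes by -0.22 (PV minus Camk2a; 95% interval -0.41 to -0.03; edgeR adjusted p = 0.308), so a difference between classes was not shown.

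**Figure D3:**
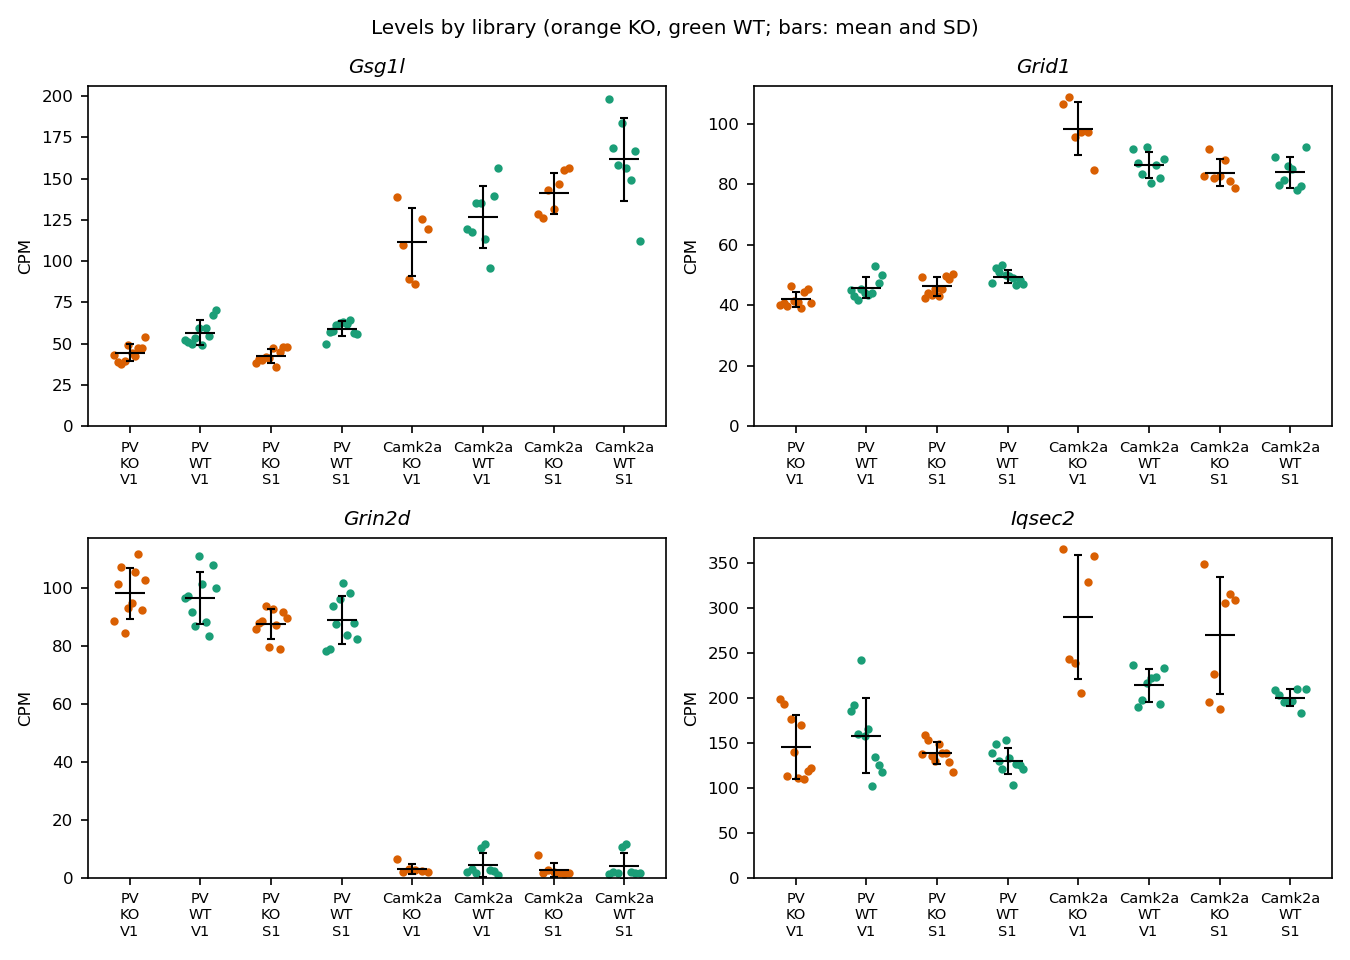
CPM (y axis) of Gsg1l, Grid1, Grin2d and Iqsec2 by library in the 8 groups of class, area and genotype (x axis); orange points are KO libraries, green points WT libraries, and bars show mean and SD. The KO PV libraries of S1 lie at 35.7 to 48.0 CPM for Gsg1l, all below the WT PV libraries of S1, and the KO Camk2a libraries spread widely for Iqsec2.

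Grid1 was the one member whose genotype effect differed between the classes, where 0.832% of genes passed that test. In PV neurons it averaged 44.3 ± 2.08 CPM in 9 KO animals and 47.7 ± 1.33 CPM in 10 WT animals (SD), a log2 fold change of -0.13 ± 0.03 that missed the threshold (edgeR adjusted p = 0.0554) and passed it with DESeq2 (adjusted p = 0.00777). In Camk2a neurons it averaged 91.5 ± 6.47 CPM in 6 KO animals and 84.4 ± 3.65 CPM in 7 WT animals, a log2 fold change of 0.12 ± 0.05 (edgeR adjusted p = 0.21). The effects differed by -0.24 ± 0.06 (95% interval -0.36 to -0.13; edgeR adjusted p = 0.0329). The call ended without C3, C18 and C19 (adjusted p = 0.0772) and without P9, P22 and P24 (adjusted p = 0.0583), while the difference stayed at -0.25 in both.

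In Camk2a neurons Iqsec2 missed the threshold in both areas. In S1 it had 188 to 349 CPM with a median of 305 in KO Camk2a libraries, against 183 to 210 CPM with a median of 200 in WT Camk2a libraries, a log2 fold change of 0.42 ± 0.12 (edgeR adjusted p = 0.0501). In V1 it had 205 to 365 CPM with a median of 286 in KO, against 189 to 237 CPM with a median of 219 in WT, a log2 fold change of 0.43 ± 0.13 (edgeR adjusted p = 0.104). The KO animals varied far more than the WT animals, and C3, C7, C12 and C14 held the high values. In PV neurons its log2 fold change over both areas was -0.01 ± 0.09. Grin1 averaged 967.5 ± 112.0 CPM in KO and 815.0 ± 46.8 CPM in WT Camk2a animals over both areas, a log2 fold change of 0.25 ± 0.07 (edgeR adjusted p = 0.07), with 6 of 6 KO animals above the WT mean. The other values that the naming rule gave were 0.16 ± 0.06 for Grid1, -0.19 ± 0.07 for Grik4 and -0.11 ± 0.06 for Dlg4 in V1, and -0.78 ± 0.29 for Grik1 in S1, all short of the threshold. Over both areas Grik4 stood at -0.11 ± 0.06. Over the same animals, the 12 PV interneuron markers had a median log2 fold change of -1.08 in Camk2a libraries with none called, and Grik1 is among the members that were high in PV libraries. The part of PV cell mRNA in these values was not tested. Gene length also moved with genotype there, since, with genes ranked by exon length and split into 3 equal parts, the median was 0.0448 over the longest part and -0.0494 over the shortest, and its part was not tested.

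**Figure D4:**
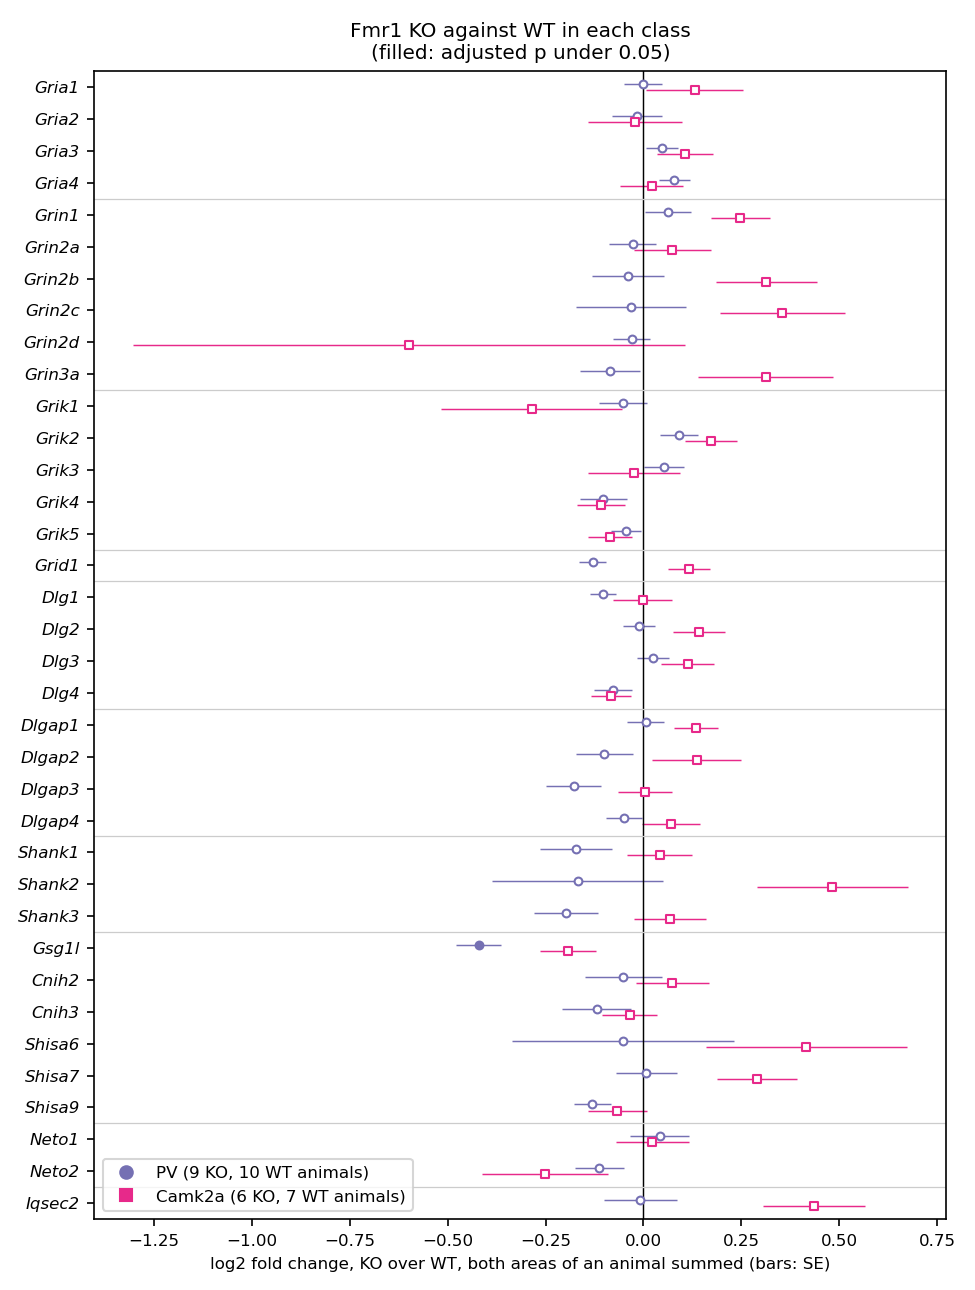
Log2 fold change of KO over WT (x axis) for the 36 members (y axis, ordered by role), with SE bars, after the V1 and S1 libraries of each animal were summed, in PV animals (9 KO, 10 WT) and Camk2a animals (6 KO, 7 WT); filled points passed an adjusted p under 0.05. Gsg1l in PV, at -0.42, is the one filled point.

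Shares within a family compare members inside one library and gave a finer view of the KO Camk2a libraries. Of the 96 share tests between KO and WT, 15 passed an adjusted p under 0.05 over all 192 share tests, and 25 had an unadjusted p under 0.05. The 192 include the 96 class tests, 90 of which passed, and pooling with them lowers the adjusted p of the KO tests. Adjusted over the 96 KO against WT tests alone, an alternative added after seeing the data, 7 passed. These were Grin2a, Grin2b and Grik2 in Camk2a V1, Dlg2 and Shank1 in Camk2a S1, and Grik2 and Dlgap1 in PV V1, with an adjusted p of 0.00672 to 0.0411. The other 8 did not, at 0.0776 to 0.147, and the adjusted p below are over 192 tests unless stated otherwise. In Camk2a V1, Grin2b made up 56.7 ± 2.59% of the GluN2 mRNAs per kb in KO libraries (SD, n = 6) and 52.3 ± 1.36% in WT libraries (n = 8; exact permutation test, adjusted p = 0.00281). Grin2a made up 41.6 ± 2.59% in KO and 45.7 ± 1.44% in WT libraries (exact permutation test, adjusted p = 0.00599). Grin2c and Grin2d made up only 0.837% and 0.854% in these KO libraries, and 0.69% and 1.32% in the WT libraries. The Grin2a and Grin2b shares of Camk2a libraries therefore mirror each other, and their tests are not separate results. In Camk2a S1, where neither passed over the 96 tests alone, Grin2b made up 52.6 ± 1.44% in KO and 48.4 ± 3.68% in WT libraries, and Grin2a 45.9 ± 1.12% in KO and 49.4 ± 2.96% in WT libraries (exact permutation tests, adjusted p = 0.0304 for Grin2b and 0.0248 for Grin2a). The S1 pair no longer passed without C3, C18 and C19, at differences of 3.29 points for Grin2b (adjusted p = 0.0919) and -3.23 points for Grin2a (adjusted p = 0.0831), and the V1 pair held. GluN2B, the Grin2b product, gives slower currents than GluN2A and dominates in the young cortex.

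Among the scaffolds of Camk2a S1, Dlg2, which encodes PSD-93, made up 13.6 ± 0.590% of the MAGUK mRNAs per kb in KO libraries (n = 7) and 12.2 ± 0.646% in WT libraries (n = 8; exact permutation test, adjusted p = 3.55e-04). Shank1 fell to 65.5% of the Shank mRNAs in KO Camk2a libraries of S1, against 68.9% in WT (adjusted p = 0.00503). In Camk2a V1 neither share passed. Dlg2 made up 14.4% in KO and 13.3% in WT libraries of V1 (exact permutation test, adjusted p = 0.0964). Shank1 made up 66.2% in KO and 68.6% in WT libraries of V1 (exact permutation test, adjusted p = 0.244). The Dlg4, Shank2 and Shank3 shares passed over 192 tests and not over the 96 alone. Dlg4 made up 46.4% in KO and 49.9% in WT libraries of S1 (adjusted p = 0.0141, and 0.0776 over 96 tests). Shank2 made up 15.8% of the Shank mRNAs in KO and 12.7% in WT libraries of S1 (adjusted p = 0.0157, and 0.0776 over 96 tests), and 16.7% in KO and 13.0% in WT libraries of V1 (adjusted p = 0.0372, and 0.137 over 96 tests). Without C3, C18 and C19 the Shank2 differences were 2.12 points in S1 (adjusted p = 0.0919) and 2.58 points in V1 (adjusted p = 0.208). Shank3 made up 17.2% in KO and 18.4% in WT Camk2a libraries of V1 (adjusted p = 0.0313, 0.123 over 96 tests, and 0.057 without C3, C18 and C19).

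In PV V1, Grik2, a low-affinity kainate subunit, made up 9.84 ± 0.501% of the kainate mRNAs per kb in KO and 8.86 ± 0.298% in WT libraries (n = 10 each; permutation test, adjusted p = 2.20e-04). Its share was also higher in KO Camk2a libraries of V1, at 3.72% in KO and 3.10% in WT (adjusted p = 0.00281). In S1 the Grik2 share did not pass in either class. It was 9.44% in KO and 9.15% in WT PV libraries of S1 (permutation test, adjusted p = 0.648). In Camk2a libraries of S1 it was 2.96% in KO and 2.64% in WT (exact permutation test, adjusted p = 0.265). Among the SAPAP mRNAs of PV V1, Dlgap1 made up 34.3% in KO and 31.8% in WT libraries (adjusted p = 0.00423), and Dlgap3 36.9% in KO and 39.2% in WT libraries (adjusted p = 0.0424, and 0.147 over 96 tests). In PV S1 the Dlgap1 share did not pass, at 34.2% in KO and 32.8% in WT libraries (permutation test, adjusted p = 0.0569). Dlgap3 made up 36.4% in KO and 38.7% in WT PV libraries of S1 (adjusted p = 0.0152, and 0.0776 over 96 tests). Without P9, P22, P24 and C24 the Dlgap3 differences did not pass, at adjusted p = 0.0931 in V1 and 0.0689 in S1. AMPA subunit shares did not pass in any KO against WT comparison with all libraries.

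In the companion list, 1 of 39 genes was called over both areas in each class, or 2.56%, against 1.36% of all genes in PV and 4.11% in Camk2a neurons. Olfm1, which encodes an extracellular protein found in AMPA receptor complexes, averaged 518 ± 33.9 CPM in KO and 570 ± 17.7 CPM in WT PV animals, a log2 fold change of -0.16 ± 0.04 (edgeR adjusted p = 0.0348). In Camk2a neurons it averaged 1275 ± 44.7 CPM in KO and 1458 ± 81.4 CPM in WT animals, a log2 fold change of -0.19 ± 0.05 (edgeR adjusted p = 0.0368). Both calls were fragile, since 11 of 19 and 10 of 13 fits that left out 1 animal ended them, with an adjusted p of up to 0.0763 in PV and 0.0907 in Camk2a.

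The last comparison set V1 against S1 within a class and genotype. Unless the animal is named as a block, these fits treat the 2 libraries of an animal as independent. In WT PV neurons, V1 libraries carried more mRNA of Shisa7, Cnih2 and Grik4 and less of Neto2, Grin2a and Grid1 than S1 libraries. Of the members, 10 were higher and 4 lower in V1, where 20.6% of all genes were called, 10.7% higher and 9.95% lower. The libraries of V1 also held more of some other cell types. Called higher were 6 of 12 excitatory neuron markers (median log2 fold change 0.293 over the list) and 6 of 8 astrocyte markers (0.459). So were 5 of 6 oligodendrocyte precursor (0.682), 3 of 8 microglia (0.468) and 3 of 8 vascular markers (0.602). Among 8 oligodendrocyte markers 1 was called higher and 1 lower, and among 8 markers of other interneurons 2 higher and 2 lower. Of 12 PV interneuron markers, 5 were called lower and 2 higher in V1, with a median of -0.0605. The summed excitatory markers were 1385 to 2556 CPM in WT PV V1 and 1372 to 1625 CPM in WT PV S1 libraries, and the part of other cells in the member results was not tested.

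Shisa7, which binds AMPA receptors and also GABA-A receptors, had 46.2 to 118 CPM with a median of 96.9 in WT PV V1 libraries, against 43.1 to 67.8 CPM with a median of 54.7 in WT PV S1 libraries. Its log2 fold change was 0.68 ± 0.12 (edgeR adjusted p = 0.00585). Cnih2 had 24.9 to 58.8 CPM with a median of 42.5 in V1, against 16.9 to 36.6 CPM with a median of 23.8 in S1, a log2 fold change of 0.70 ± 0.15 (edgeR adjusted p = 0.00694). Both genes were lower in PV than in Camk2a neurons. Grik4 had 8.04 to 12.8 CPM with a median of 11.6 in V1, against 7.63 to 12.1 CPM with a median of 8.61 in S1, a log2 fold change of 0.32 ± 0.09 (edgeR adjusted p = 0.0157). In the other direction, Neto2 had 160 to 285 CPM with a median of 177 in V1, against 181 to 308 CPM with a median of 272 in S1, a log2 fold change of -0.46 ± 0.11 (edgeR adjusted p = 0.0106). Grin2a had 231 to 370 CPM with a median of 284 in V1, against 257 to 457 CPM with a median of 360 in S1, a log2 fold change of -0.34 ± 0.10 (edgeR adjusted p = 0.0219). Grid1 had 41.8 to 53.1 CPM with a median of 44.6 in V1, against 46.8 to 53.4 CPM with a median of 49.5 in S1, a log2 fold change of -0.14 ± 0.05 (edgeR adjusted p = 0.0363, and 0.0522 with the animal as a replicate block). The V1 and S1 ranges of all 6 genes overlapped. For all 6 genes the V1 library of P22 lay at the wrong end of the V1 range. Its S1 library lay at the wrong end of the S1 range for all 6 as well. With the animal as a block 18 members were called, 15 higher and 3 lower, where 26.6% of all genes were called.

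**Figure D5:**
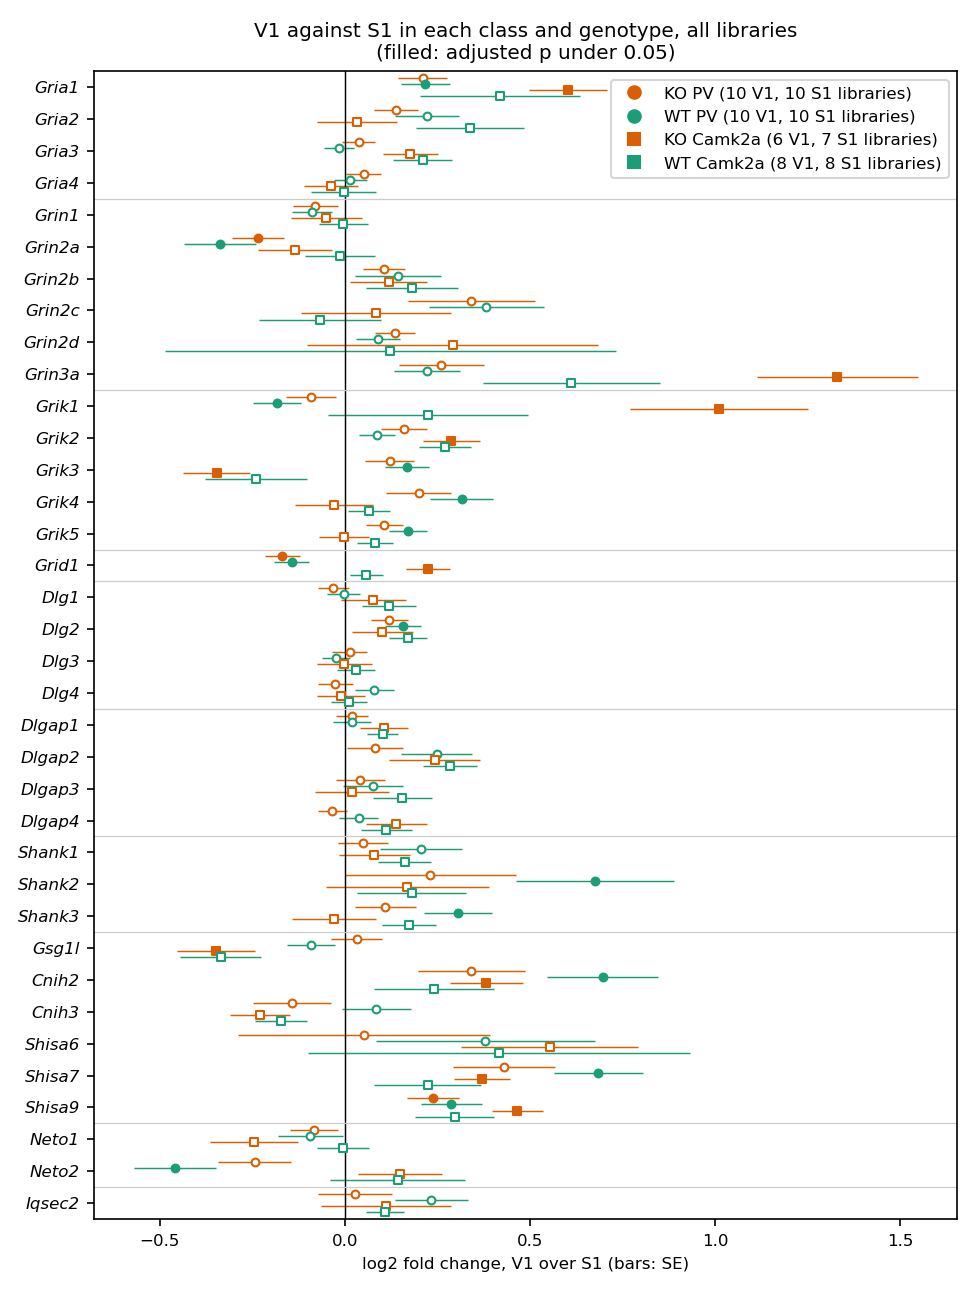
Log2 fold change of V1 over S1 (x axis) for the 36 members (y axis, ordered by role), with SE bars, in KO and WT libraries of each class; filled points passed an adjusted p under 0.05. Shisa7 and Cnih2 lie to the right in all 4 groups, and Neto2 and Grid1 lie to the left in PV and to the right in Camk2a libraries.

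In KO Camk2a neurons 8 members were higher and 2 lower in V1, where 13.1% of genes were called, 6.42% higher and 6.65% lower. Grin3a led with 7.21 to 20.3 CPM in V1, against 2.77 to 6.38 CPM in S1, without overlap, a log2 fold change of 1.33 ± 0.22 (edgeR adjusted p = 8.92e-04). Shisa9 had 50.7 to 60.9 CPM in V1, against 35.3 to 46.3 CPM in S1, a log2 fold change of 0.47 ± 0.07 (edgeR adjusted p = 3.28e-04). Gria1, Cnih2, Shisa7, Grik1, Grik2 and Grid1 were also higher in V1, and Gsg1l and Grik3 were lower, both with log2 fold changes of -0.35 (edgeR adjusted p = 0.0404 for Gsg1l and 0.0188 for Grik3). With the animal as a replicate block, 10 members were higher and 4 lower, where 20.9% of genes were called. In KO PV neurons 1 member was higher and 2 lower, where 7.56% of genes were called, 3.47% higher and 4.09% lower. With the animal as a block none was called there, where 0 of 16153 genes were, although the edgeR test gave 14 members (38.9%) and 29.6% of all genes an unadjusted p under 0.05. DESeq2 without the block called 5 members (13.9%) and 11.7% of genes.

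In WT Camk2a neurons no member was called by edgeR, where 0.359% of all genes were called. An unadjusted p under 0.05 was found for 13 members (36.1%) and 22.8% of all genes. DESeq2 called 4 members (11.1%), namely Gsg1l, Dlgap2, Dlg2 and Grik2, and 7.69% of genes. Without C24, whose libraries lay on the side of the other area, 10 members and 21.8% of all genes were called. Without C3, C18 and C19, edgeR called 0 members and 0 of 15623 genes. In that fit 4 members and 2193 genes had an unadjusted p under 0.05. With the animal as a block and without P9, P22, P24 and C24, members called numbered 22 in WT PV (42% of genes), 18 in KO PV (28.6%) and 20 in WT Camk2a neurons (33.7%). Those animals were left out because of their levels of area genes. These last counts, and those without C24 alone, therefore describe the remaining libraries and are no independent test of area. Under that setting Gsg1l stood at -0.41 ± 0.06 in WT Camk2a and at -0.08 ± 0.07 in WT PV neurons, and Neto2 at 0.25 ± 0.07 in WT Camk2a and at -0.59 ± 0.05 in WT PV neurons. Whether area effects differed between the classes was not tested.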

How the data were processed

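Ribosome-bound mRNA was measured in 69 immunoprecipitated libraries, and homogenate RNA was not analysed here. Per the labels' protocols, cDNA was amplified with the Ovation RNA-Seq System V2 kit before paired-end sequencing. The authors deposited 1 table of estimated counts per gene without normalization, 71.1% of them fractional. The submitters' processing notes name STAR, Salmon, limma and mm10, while roles, versions and any filter on low genes are not given in the sources used here. Similar or overlapping genes can share reads in such counts, and strand use was not given. GENCODE M21 named 17614 of 17634 genes.

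Library totals were 27.64 to 49.11 M, with a median of 38.77 M. No errors of counting are given, since amplified reads carry no molecular identifiers, and p-values measure the spread between animals. The V1 against S1 fits without the animal as a block are an exception, as they treat the 2 libraries of an animal as independent. Estimated counts were rounded, filtered with filterByExpr, scaled with TMM and tested with edgeR 4.0.16 in R 4.3.3 (robust quasi-likelihood fit, sex as covariate, Benjamini-Hochberg adjustment over all genes, called at an adjusted p under 0.05). CPM used the rounded counts. The test was checked on simulated data with 200 changed genes. Subunit shares used CPM per kb of merged exons and two-sided permutation tests over libraries, exact where a group had fewer than 10 libraries and otherwise with 100000 resamples, adjusted over 192 tests. Shares had no sex term.

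V1 and S1 libraries of an animal are paired by the animal codes in the labels. Deviations from the group means correlated within animals with a median r of 0.178 in KO PV, 0.47 in WT PV, 0.55 in KO Camk2a and 0.538 in WT Camk2a mice, over all genes, which are not independent. No library was present a second time, as the smallest chi-square per degree of freedom between libraries of a group was 4.49. Alternatives were DESeq2 1.42.0, RLE size factors, no filter, no sex term, the animal as a block, limma-voom (limma 3.58.1), shares without length and animals left out.

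Members, lists and rules were chosen with earlier results of these data known. The naming rule took members called in any KO against WT fit, the 6 called members with the largest fold each way between classes in WT V1, the 3 called members each way with the smallest p between areas in WT, and, where a KO against WT fit called none, the 2 members each way with the smallest p. Fmr1 checked the labels. Others named were chosen after their values were seen. The alternatives without P9, P22, P24 and C24 together with the block or for shares, the adjustment of share tests within KO against WT and within class tests, and the class comparison without C24, were added after seeing the data.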

Additional observations from a re-analysis of the deposited data

Results flagged for a closer look

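For genes named by the rule, 128 groups of libraries were checked for a library far from the rest, and 12 held one. Chance gives about 1 in 20 groups if the values are independent. The same libraries recur across genes here, so the 12 are not set against that rate. Neto2 was highest in the WT V1 PV library of P22, at 284.6 CPM against 215.7 for the next. Grik4 was lowest in the same library, at 8.036 CPM against 10.49, and highest in the S1 library of P22, at 12.07 CPM against 9.849. Gria1 stood apart in 3 S1 libraries, at 946.3 CPM against 758.8 in P9 (KO PV), 864.6 against 728.7 in P22 (WT PV) and 457.7 against 297 in C24 (WT Camk2a). Cnih2 was 46.8 CPM in the S1 library of P9 against 33.06 for the next, and Shisa6 30.68 CPM in the S1 library of C24 against 17.87. P9, P22 and C24 are the animals whose libraries lay on the side of the other area, and the part of this in these values was not tested.

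Grin2d stood apart in both KO Camk2a libraries of C3, at 6.475 CPM in V1 against 3.018 for the next and at 7.852 CPM in S1 against 2.697, and C3 is rich in PV markers. Cnih3 was 24.96 CPM in the S1 library of P23 (KO PV) against 17.11 for the next. Grin2a was 533 CPM in the KO Camk2a library of C4 in S1 against 449.2 for the next.

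The genotype effect of Grid1 differed between the classes by -0.244 on the log2 scale (PV minus Camk2a; edgeR adjusted p = 0.0329), with 0 of 9 KO PV animals and 5 of 6 KO Camk2a animals above the WT mean of their class.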

How the results depend on the processing

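The counts of members called between classes stayed within 1.5 times of the main counts under every alternative run. Between KO and WT the PV V1 count was 0 without P9, P22 and P24, and PV over both areas had 2 with DESeq2 and 2 with limma-voom (Gsg1l and Grid1). Camk2a V1 had 1 with DESeq2 (Iqsec2). Camk2a S1 had 2 with DESeq2 (Grik1 and Iqsec2), 1 with RLE size factors, 1 with no sex term and 4 without C24 (Grin2b, Shank2, Iqsec2 and Gsg1l). Camk2a over both areas had 2 with DESeq2 (Grin1 and Iqsec2), 3 with limma-voom (Grin2b, Shank2 and Iqsec2) and 3 without C24 (Grin1, Grin2b and Shisa7). Without C24, all genes called numbered 1634 in Camk2a S1 and 1347 over both areas, against 641 and 688 in the main fits. Counts over all genes with RLE size factors, no sex term and limma-voom are not given here. The class difference of genotype effects had 0 without C3, C18 and C19 and 0 without P9, P22 and P24. Leaving out 1 library or animal gave 0 to 1 members in PV V1, 1 to 1 in PV S1, 0 to 1 in Camk2a V1 (1 without C6), 0 to 4 in Camk2a S1 (1 each without C3, C4 or C6, 4 without C24), 1 to 2 in PV over both areas (2 without P3, P23, P24 or P25) and 0 to 3 in Camk2a over both areas (1 without C6, 3 without C24). Over all genes, those fits called 20 to 56 in PV V1, 80 to 177 in PV S1 and 144 to 255 in PV over both areas. In Camk2a they called 28 to 474 in V1, 253 to 1634 in S1 and 235 to 1347 over both areas. Grid1 in Camk2a S1, near 0, ran from -0.0275 to 0.0364 in those fits, and reversed in 6 of them. The Grin2a share between classes in KO S1 reversed without division by length, at 0.381 points. The cause of these moves was not tested. Adjusted apart from the class tests, 7 in place of 15 shares passed between KO and WT.

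Between V1 and S1, with the animal as a replicate block, 18 members were called in WT PV, 0 in KO PV, 0 in WT Camk2a and 14 in KO Camk2a. The paired fit without P9, P22, P24 and C24 called 22 in WT PV, 18 in KO PV and 20 in WT Camk2a. KO PV had 5 with DESeq2 and 13 without P9, P22 and P24. WT Camk2a had 4 with DESeq2, 10 without C24 and 0 without C3, C18 and C19. The counts without P9, P22, P24 or C24 leave out animals for their levels of area genes and are no independent test of area. Over all genes, counts between KO and WT moved by more than 1.5 times with DESeq2, from 31 to 114 in PV V1, 122 to 309 in PV S1, 234 to 475 in PV over both areas, 222 to 845 in Camk2a V1, 641 to 1450 in Camk2a S1 and 688 to 1728 in Camk2a over both areas. Without C3, C18 and C19 the Camk2a counts were 15 in V1, 299 in S1 and 131 over both areas. Of the named genes, 593 values kept their direction and side of the threshold under the alternatives other than leaving out 1 animal, 23 newly passed and 10 no longer passed. Members under a few CPM, such as Shisa6 and Grin2c, limit what depth can show.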
